A study of Homo sapiens with 13 samples.

Results

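Long non-coding RNA (lncRNA) genes make transcripts that are not translated into protein. Their promoters can be open only in certain cell types, and several lncRNAs act in the nucleus or host the precursors of small RNAs. The promoters described here were rows of the deposited lists of accessible regions that lay within 500 bp of the 5′ end of an lncRNA gene in GENCODE release 44, on chromosomes 1 to 22, and over 5 kb from the transcription start site (TSS) of every transcript of a protein-coding gene. The distance limit keeps out lncRNAs that share an open site with a protein-coding neighbour. There were 3538 such regions among 201148 in H82 and 3166 among 169986 in H146, so 6704 of 371134 in all.

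Accessibility was measured by ATAC-seq, which uses a transposase, Tn5, to insert sequencing adaptors where DNA is open. H82, of the NEUROD1 subtype (SCLC-N), and H146, not of that subtype, are established cell lines from human small cell lung cancer (SCLC). Both were labelled wild type, and cells were left untreated or exposed for 14 days to 100 nM FHD-286, an inhibitor of SMARCA4 and SMARCA2, the ATPases of the SWI/SNF chromatin remodelling complexes. For H82 there were 3 libraries of either kind, and for H146 there were 4 without and 3 with the drug. Of the H146 libraries, 3 controls formed a sequencing batch, and the other control was sequenced with the 3 treated samples. The deposited list of each line pooled its untreated and treated libraries and gave only chromosome, start and end, so FHD-286 could not be compared with untreated cells, a region has no height, and the depth of each library is unknown. Every comparison below is between the lines or between kinds of region. The number of libraries, their depth and DNA copy number go with the line and cannot be told apart from it. A region within 500 bp of the NEUROD1 TSS was present in H82 and absent in H146, while CHGA, INSM1, DLL3, POU2F3 and YAP1 had a region in both lines, so only NEUROD1 among these markers told the lines apart.

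The 5′ ends below show the range of sequences behind these promoters. Each is the hg38 sequence from 250 bp before to 50 bp after the 5′ end of the gene, read on its own strand, with every CpG dinucleotide in capitals. CpG-rich promoters are typical of broadly used genes, and CpGs are otherwise rare in the human genome. The first set had a region in both lines. NORAD (chr20:36050969-36051268, minus strand) is an abundant RNA that binds Pumilio proteins, LINC00461 (chr5:88691008-88691307, minus strand) is a neural lncRNA, and MIAT (chr22:26646161-26646460, plus strand) is an lncRNA of neurons and heart. NORAD held 17 CpGs and LINC00461 held 19, whereas MIAT held 3.
NORAD: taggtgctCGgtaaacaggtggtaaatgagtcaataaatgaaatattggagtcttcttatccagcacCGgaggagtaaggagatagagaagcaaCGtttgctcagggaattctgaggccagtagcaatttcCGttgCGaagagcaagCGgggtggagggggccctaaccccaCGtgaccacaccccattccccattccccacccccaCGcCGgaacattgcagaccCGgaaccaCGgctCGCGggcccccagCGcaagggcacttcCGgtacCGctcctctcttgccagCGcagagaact
LINC00461: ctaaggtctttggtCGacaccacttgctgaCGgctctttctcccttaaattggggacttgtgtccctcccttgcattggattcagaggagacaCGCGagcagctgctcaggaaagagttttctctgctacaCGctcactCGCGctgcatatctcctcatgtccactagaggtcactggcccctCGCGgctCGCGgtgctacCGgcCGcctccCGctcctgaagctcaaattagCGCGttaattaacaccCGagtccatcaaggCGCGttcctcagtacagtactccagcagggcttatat
MIAT: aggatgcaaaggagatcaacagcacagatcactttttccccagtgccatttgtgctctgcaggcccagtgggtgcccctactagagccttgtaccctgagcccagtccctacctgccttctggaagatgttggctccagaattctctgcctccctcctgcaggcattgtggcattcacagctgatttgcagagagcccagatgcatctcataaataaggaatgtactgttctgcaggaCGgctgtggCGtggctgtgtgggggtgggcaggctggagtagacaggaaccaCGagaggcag

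The next set had a region in H82 and none within 500 bp in H146. LINC02316 (chr14:86062932-86063231, minus strand) and LINC02284 (chr14:56310630-56310929, plus strand) were the H82-only genes with the widest regions among genes with a symbol. Both regions were overlapped by H146 regions away from the 5′ end. LINC01960 (chr2:174025030-174025329, plus strand) has SP3 as its nearest protein-coding gene, and SFTA3 (an lncRNA gene, ENSG00000229415, chr14:36513780-36514079, minus strand) neighbours NKX2-1, a lung and forebrain transcription factor gene.
LINC02316: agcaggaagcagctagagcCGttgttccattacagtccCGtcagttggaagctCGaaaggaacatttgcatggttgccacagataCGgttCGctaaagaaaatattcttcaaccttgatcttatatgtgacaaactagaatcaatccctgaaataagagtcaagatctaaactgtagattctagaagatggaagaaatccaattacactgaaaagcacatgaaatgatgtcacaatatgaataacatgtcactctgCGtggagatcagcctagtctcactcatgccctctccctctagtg
LINC02284: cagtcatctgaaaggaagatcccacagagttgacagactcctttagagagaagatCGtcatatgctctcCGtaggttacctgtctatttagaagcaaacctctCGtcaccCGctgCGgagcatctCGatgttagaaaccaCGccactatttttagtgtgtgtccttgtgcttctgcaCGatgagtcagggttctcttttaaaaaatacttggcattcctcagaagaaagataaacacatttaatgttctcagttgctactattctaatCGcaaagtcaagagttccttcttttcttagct
LINC01960: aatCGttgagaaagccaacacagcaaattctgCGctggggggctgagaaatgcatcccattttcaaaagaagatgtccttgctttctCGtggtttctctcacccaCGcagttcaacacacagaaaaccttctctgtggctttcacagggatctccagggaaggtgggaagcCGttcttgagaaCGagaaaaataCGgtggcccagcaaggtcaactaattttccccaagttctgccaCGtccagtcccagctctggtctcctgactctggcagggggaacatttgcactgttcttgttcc
SFTA3: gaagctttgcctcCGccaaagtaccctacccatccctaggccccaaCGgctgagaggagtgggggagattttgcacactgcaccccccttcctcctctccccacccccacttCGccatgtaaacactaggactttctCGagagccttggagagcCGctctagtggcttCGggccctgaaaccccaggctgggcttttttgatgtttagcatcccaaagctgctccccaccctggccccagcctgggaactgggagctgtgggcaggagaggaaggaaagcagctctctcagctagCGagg

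The last set had a region in H146 and none within 500 bp in H82. SLC6A10P (chr16:32885093-32885392, minus strand) and SLC2A9-AS1 (chr4:10006232-10006531, plus strand) were the H146-only genes with the widest regions among genes with a symbol. Both regions were overlapped by H82 regions away from the 5′ end. LINC01941 (chr2:126117974-126118273, minus strand) was shown because the nearest H82 region was far away. SLC6A10P held 36 CpGs and LINC01941 held 0. Of 6 pieces of 50 bases cut from the SLC6A10P window, 5 had another exact copy in hg38, so reads there cannot be assigned to this gene with certainty. The other 9 windows shown had no second exact copy of any piece.
SLC6A10P: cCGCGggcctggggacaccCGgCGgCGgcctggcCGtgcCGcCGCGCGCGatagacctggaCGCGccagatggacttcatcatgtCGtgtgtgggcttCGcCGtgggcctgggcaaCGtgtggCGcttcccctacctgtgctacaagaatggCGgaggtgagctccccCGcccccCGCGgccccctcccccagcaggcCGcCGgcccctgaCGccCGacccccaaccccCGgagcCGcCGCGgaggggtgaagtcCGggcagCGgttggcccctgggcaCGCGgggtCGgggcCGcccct
SLC2A9-AS1: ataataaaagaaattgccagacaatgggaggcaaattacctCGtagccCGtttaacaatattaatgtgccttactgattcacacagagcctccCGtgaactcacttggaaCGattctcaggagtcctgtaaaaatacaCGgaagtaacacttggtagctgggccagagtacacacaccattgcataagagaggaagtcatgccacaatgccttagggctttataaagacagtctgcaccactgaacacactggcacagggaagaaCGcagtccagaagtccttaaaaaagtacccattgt
LINC01941: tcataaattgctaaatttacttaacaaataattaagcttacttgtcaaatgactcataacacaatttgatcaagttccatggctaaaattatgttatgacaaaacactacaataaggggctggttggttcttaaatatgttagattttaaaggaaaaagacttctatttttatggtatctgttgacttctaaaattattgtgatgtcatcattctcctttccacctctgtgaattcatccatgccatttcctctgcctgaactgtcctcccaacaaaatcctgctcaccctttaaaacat

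An open promoter was less often shared between the lines at lncRNA genes than at protein-coding genes. Of 18390 lncRNA genes on chromosomes 1 to 22, 4292 had a promoter region as defined above. Of these, 2903 (67.6%, 95% Wilson interval 66.2 to 69.0) had a region within 500 bp in both lines, 890 (20.7%, interval 19.55 to 21.98) in H82 only and 499 (11.6%, interval 10.7 to 12.6) in H146 only. A gene entered through a promoter region in at least 1 line, and any region of the other line within 500 bp then counted, which at 29 of the 2903 genes was a region too near a protein-coding TSS to be a promoter region itself. For comparison, 5.01% of all 19111 protein-coding genes had a region in H82 only and 1.9% in H146 only. Among the 15385 protein-coding genes with a region in either line, these shares were 6.22% and 2.36%. All intervals here cover counting error only. Counted with the same test for every gene, 12191 lncRNA genes had a 5′ end over 5 kb from protein-coding TSSs, and 24.3% of them had a region in both lines, 7.52% had it in H82 alone, 4.15% had it in H146 alone and 64.1% had none. Protein-coding genes had a region in both lines in 73.6% and in neither in 19.5%. Among genes with a region in either line, the share with both was 67.5% (interval 66.1 to 68.9) for lncRNA genes and 91.4% (interval 91.0 to 91.9) for protein-coding genes.

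**Figure D1:**
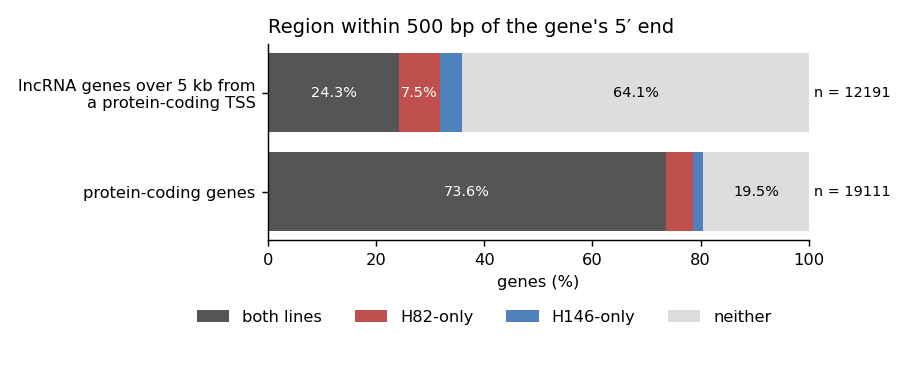
Share of genes (%, horizontal axis) with a region within 500 bp of the 5′ end in both lines, in a single line or in neither, for lncRNA genes far from protein-coding TSSs and for protein-coding genes. The bar of lncRNA genes is mostly empty of regions (64.1% in neither line) and that of protein-coding genes is mostly shared (73.6%).

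The same difference held region by region. In H82, 2725 of 3538 lncRNA promoter regions (77.0%) were overlapped by at least 1 bp of an H146 region, against 59.6% of all H82 regions. The share was 94.1% for protein-coding promoter regions, which lay within 500 bp of a protein-coding 5′ end, and 56.5% for distal regions, which lay over 5 kb from protein-coding TSSs and over 500 bp from lncRNA 5′ ends. In H146, 2722 of 3166 (86.0%) were overlapped by H82, against 70.6% of all H146 regions, 97.6% of protein-coding promoter regions and 67.0% of distal regions. The lncRNA promoters thus stood 20.5 percentage points above distal regions in H82 (jackknife SE over chromosomes 1.49) and 19.02 points in H146 (SE 0.895), with the same direction on 22 of 22 chromosomes. They stood 17.1 points below protein-coding promoters in H82 (difference -17.1, SE 1.33) and 11.6 points in H146 (difference -11.6, SE 1.04), on all 22 chromosomes. In each of these tests, sign flips of the per-chromosome differences gave a two-sided permutation p of 1e-05, the smallest that 100000 resamples can give, and 1e-05 after Benjamini-Hochberg adjustment over 10 tests, those of sharing, width and CpG content made within a line. Such a test shows whether a difference held from chromosome to chromosome and says nothing about replicate cultures.

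The lncRNA promoter regions were wider than distal regions. The H82 members had a median of 889 bp (quartiles 450 and 1648) and the H146 members 930 bp (quartiles 468 and 1688), against 444 and 458 bp for distal regions and 1780 and 1712 bp for protein-coding promoters. The difference from distal regions was 445 bp in H82 (SE 30.1) and 472 bp in H146 (SE 36.9), again on 22 of 22 chromosomes in both (permutation p 1e-05, adjusted 1e-05). The widths come after the authors joined sites within 500 bp of each other, so a wide region can hold several sites. The rule itself favours wide regions, since a wide region reaches a 5′ end more easily and distal regions had to miss all of them. Promoter regions with the 5′ end inside had medians of 1173 bp in H82 and 1209 bp in H146. Those 1 to 100 bp from it had 424 and 468 bp. The part of the rule in the width difference was not tested.

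Shared lncRNA promoters were wider than line-only ones. Shared H82 regions had a median width of 1079 bp and H82-only regions 460 bp, a difference of 619 bp (SE 51.2). Shared H146 regions had a median of 1102 bp and H146-only regions 340 bp, a difference of 762 bp (SE 34.9). Both differences held on 22 of 22 chromosomes (permutation p 1e-05, adjusted 1e-05). A wide region is also easier to overlap by position alone, so sharing was read again within classes of width. Between 500 and 999 bp, 76.7% of H82 lncRNA promoters were shared, against 88.4% of protein-coding promoters and 63.3% of distal regions. In the same class of H146, the shares were 89.7%, 96.5% and 84.2%. Between 201 and 299 bp, the Wilson intervals of lncRNA promoters (46.4 to 57.2% in H82, 44.3 to 56.1% in H146) overlapped those of protein-coding promoters (42.5 to 54.8% and 47.1 to 60.4%). With distal regions weighted to the widths of the lncRNA promoters, the distal share rose to 64.9% in H82 and 80.8% in H146, and the difference shrank to 12.1 points (permutation p 1e-05) and 5.16 points (permutation p 2e-05).

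**Figure D2:**
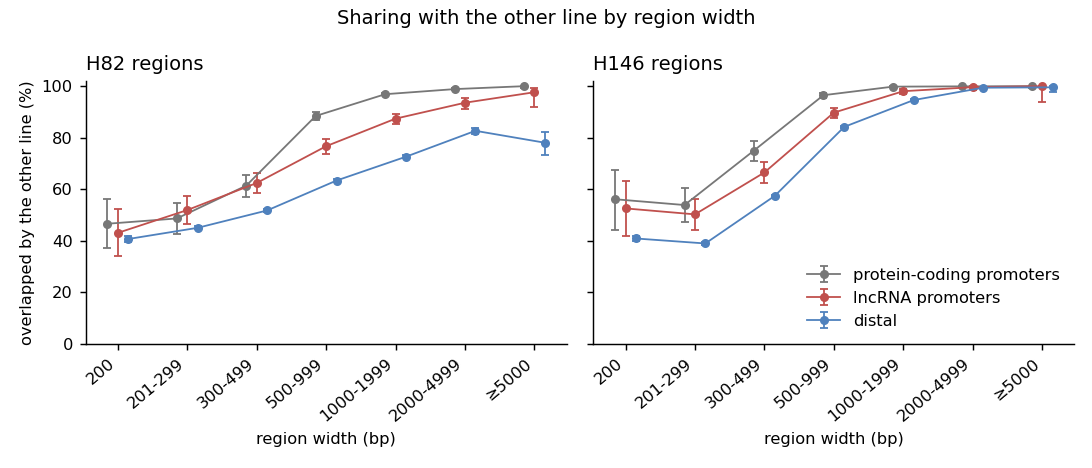
Share of regions overlapped by the other line (%, vertical axis) by region width in bp (horizontal axis), for H82 regions on the left and H146 regions on the right, with 95% Wilson intervals as bars. From 500 to 1999 bp the lncRNA promoters lie between protein-coding promoters and distal regions in both lines, and H146 regions of 2000 bp or more are nearly all shared.

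Most regions covered the gene start itself. The 5′ end lay inside the region for 2471 of the H82 promoters (69.8%) and 2257 of the H146 promoters (71.3%). At the 500 bp limit, 178 H82 and 141 H146 regions lay 401 to 500 bp from the nearest lncRNA 5′ end, with 65.2% and 66.7% shared. Just outside, 160 and 165 regions lay at 501 to 600 bp, with 56.9% and 72.7% shared. At the limit from protein-coding TSSs, 103 H82 and 82 H146 regions lay 5001 to 6000 bp away, with 68.9% and 86.6% shared. Just inside that distance, at 4001 to 5000 bp, 109 and 82 regions were left out, with 65.1% and 86.6% shared. A further view comes from coverage around the 5′ end. At genes with regions in both lines, the H82 atlas covered 76.4% and the H146 atlas 77.0% of positions 50 bp upstream, where coverage was highest. At H82-only genes the H82 atlas peaked at 54.7% at the same position, and at H146-only genes the H146 atlas peaked at 44.9%.

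**Figure D3:**
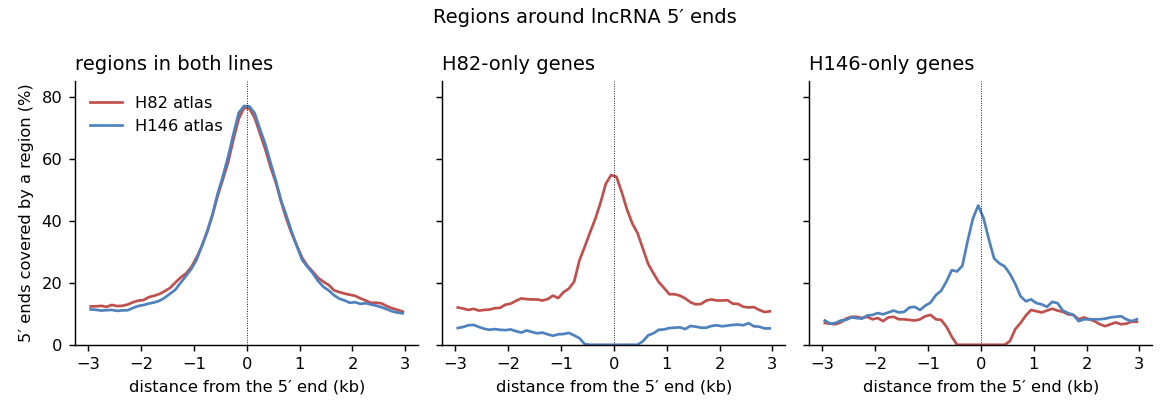
Share of lncRNA 5′ ends covered by a region (%, vertical axis) against distance from the 5′ end in kb (horizontal axis, upstream negative), for genes with regions in both lines, H82-only genes and H146-only genes. The curves peak just upstream of the 5′ end, at 76.4% and 77.0% for genes with both, 54.7% for H82-only and 44.9% for H146-only genes, and the gap of the other line at 0 follows from how line-only genes were defined.

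CpG content, which the choice of members did not use, differed with sharing. The ratio of observed to expected CpGs in the window from 250 bp before to 50 bp after the 5′ end had a median of 0.383 at the 2903 genes with regions in both lines, 0.263 at the H82-only genes and 0.227 at the H146-only genes. The difference was 0.120 against H82-only genes (SE 0.0122) and 0.156 against H146-only genes (SE 0.0177), positive on 22 of 22 chromosomes in each (permutation p 1e-05, adjusted 1e-05). Distant lncRNA 5′ ends with no region in either line had a median of 0.197, and protein-coding 5′ ends with regions in both had 0.798. Windows with a ratio over 0.6 and a GC content over 50%, called CpG-rich here, made up 28.1% (817) of the genes with both, 9.10% (81) of H82-only and 4.81% (24) of H146-only genes, against 71.5% of protein-coding genes with both. NORAD and LINC00461 above are of the CpG-rich kind with ratios of 0.70 and 0.85, while MIAT, also open in both lines, had 0.13. The median number of exons was 3 in all 3 classes, and genes with a single exon made up 11.8%, 12.5% and 10.4%.

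**Figure D4:**
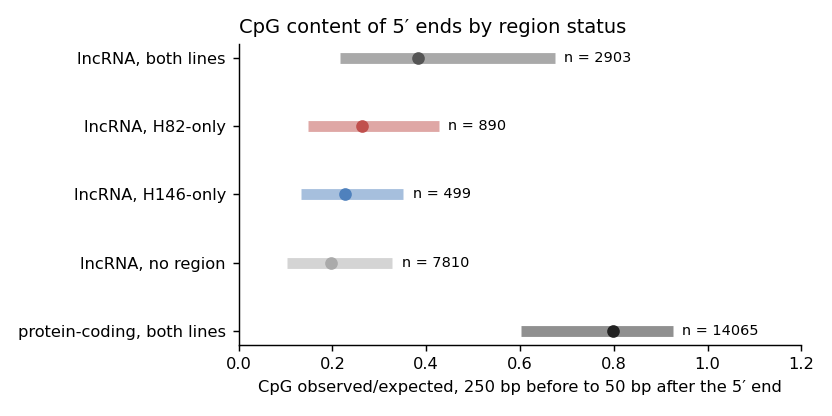
CpG observed/expected ratio (horizontal axis) of 5′ ends by region status, with the median as a point, the quartiles as a bar and the number of genes beside it. Medians fall from 0.383 in lncRNA genes with regions in both lines to 0.263, 0.227 and 0.197, all below 0.798 in protein-coding genes.

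Where both lines had an lncRNA promoter region, its width was close. Over 2874 genes the median log2 ratio of the H82 width to the H146 width was -0.04 (quartiles -0.31 and 0.13). The H82 region was wider at 924 genes, the H146 region at 1655, and the widths were the same at 295. Larger gaps were few, with the H82 region at least 4 times wider at 91 genes and the H146 region at 56.

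The kinds of lncRNA are described by their counts, without a test, beside 67.6% open in both lines, 20.7% in H82 only and 11.6% in H146 only over all 4292 genes. Genes known by an Ensembl ID alone were the largest class, with 2863 genes and 66.4% open in both lines. Hosts of small nucleolar RNAs (symbols SNHG), whose introns carry RNAs that guide rRNA modification, had 14 genes with a promoter region and 13 were open in both lines. The exception was SNHG27, with a 640 bp region in H146 and the nearest H82 region 7456 bp away. Hosts of microRNAs (symbols MIR to HG) had 44, of which 35 were open in both, 8 in H82 only and 1 in H146 only. Intergenic lncRNAs with LINC symbols had 801, with 554 (69.2%), 158 and 89. Antisense genes (suffix AS) had 245, with 152 (62.0%), 60 and 33. By position, 70.5% of 3493 genes outside protein-coding genes were open in both lines, against 55.6% of 604 genes inside a protein-coding gene on the opposite strand and 52.8% of 195 on the same strand. ATAC-seq has no strand, so a site inside a host gene may serve either gene.

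The line-only microRNA hosts were named after their values had been seen. MIR155HG, the host of miR-155, a regulator of immune cells, had a 347 bp region in H82 that began 331 bp from its 5′ end, and the nearest H146 region was 45212 bp away. MIR365BHG had a 1015 bp H82 region over its 5′ end with the nearest H146 region at 8101 bp. MIR219A2HG, whose miR-219 is known from oligodendrocytes, had a 606 bp H82 region over its 5′ end with the nearest H146 region at 3987 bp. MIR493HG, from an imprinted cluster, had a 266 bp H146 region at 451 bp with the nearest H82 region at 5288 bp. The mature RNAs of these 4 hosts are given from RefSeq (GRCh38.p14) with the seed, bases 2 to 8, in capitals, and no seed is shared among them.
hsa-miR-155-3p: cUCCUACAuauuagcauuaaca
hsa-miR-155-5p: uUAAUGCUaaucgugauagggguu
hsa-miR-219a-2-3p: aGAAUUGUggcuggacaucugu
hsa-miR-219a-5p: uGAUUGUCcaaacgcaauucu
hsa-miR-365b-3p: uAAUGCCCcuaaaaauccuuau
hsa-miR-365b-5p: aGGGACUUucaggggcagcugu
hsa-miR-493-3p: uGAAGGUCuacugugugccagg
hsa-miR-493-5p: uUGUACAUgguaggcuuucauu

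They map to chr21:25573983-25574043 (plus strand) for miR-155, chr9:128392632-128392696 (minus strand) for miR-219a, chr17:31575439-31575499 (plus strand) for miR-365b and chr14:100869075-100869137 (plus strand) for miR-493. The remaining H82-only hosts are given with the region width and the distance from the 5′ end to the nearest H146 region. They were MIR583HG (1054 bp, 13417 bp), MIR600HG (402 bp, 1828 bp), MIR4307HG (553 bp, 1534 bp), MIR4527HG (232 bp, 1327 bp) and MIR124-2HG (1925 bp, 26009 bp), the last a host of the neuronal miR-124. Within 5 kb of the MIR4527HG 5′ end, H146 covered more bases (18.0%) than H82 did (8.23%). The files hold no RNA values, so whether any of these RNAs was made is not known from them.

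Among genes with a symbol, to which the naming rule is limited, the widest promoter regions of H82-only genes lay in long accessible stretches. Genes known by an Ensembl ID alone held 7 of the 10 widest regions of H82-only genes. They also held 7 of the 10 widest regions of H146-only genes. LINC02316 had a region of 132797 bp (chr14:85973853-86106649), and the 5 kb to either side of its 5′ end was covered to 100.0% in H82 and 0.0% in H146. LINC02284 had 41818 bp (chr14:56307341-56349158), with 85.4% covered in H82 and 0.0% in H146. Both regions were overlapped elsewhere by H146 regions. The H146 region nearest to the LINC02316 5′ end was 7164 bp away, inside the H82 region. The one nearest to the LINC02284 5′ end was 16440 bp away, outside the H82 region. The next 3 genes with a symbol lay close together on chromosome 21. LINC00165 had 9587 bp, with 91.9% covered in H82 and 16.5% in H146, PICSAR, an RNA named for cutaneous squamous carcinoma, had 4618 bp (52.2% and 2.00%), and TSPEAR-AS1 had 3853 bp (63.9% and 7.65%). On other chromosomes, LINC02596 had 3142 bp on chromosome 1, with 48.2% covered in H82 and 20.5% in H146. BMF-AS1, antisense to the apoptosis gene BMF, had 3085 bp on chromosome 15 (73.2% and 10.9%). CCDC144NL-AS1 had 2822 bp on chromosome 17 (39.7% and 2.47%), where 3 of 6 pieces of the window had another exact copy. LINC01960 had 2849 bp (chr2:174023416-174026264), with its 5′ end inside the region and 0.0% of the bases within 5 kb covered in H146. PEG13, an imprinted lncRNA inside TRAPPC9, had 2846 bp, and an H146 region of 1336 bp overlapped it 2192 bp from the 5′ end.

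The widest promoter region of an H146-only gene, chosen after its value was seen, was that of ENSG00000284720 on chromosome 1 with 4960 bp. H146 promoter regions that no H82 region overlapped were at most 2168 bp wide, so an H82 region overlapped this one. Among genes with a symbol, the widest had 4141 bp, and most had H82 sites beside them. SLC6A10P had this region (chr16:32880804-32884944), with 61.9% of the surroundings covered in H146 and 14.4% in H82. SLC2A9-AS1, antisense to the urate transporter gene SLC2A9, had 3487 bp (chr4:10005815-10009301), and an H82 region of 1838 bp lay within it, 616 bp from the 5′ end. TUSC8 had 3400 bp (chr13:44402758-44406157), and the H82 region there began at the same base but ended short of the 5′ end (chr13:44402758-44404901). LINC01941 had 2168 bp (chr2:126115729-126117896), and the nearest H82 region was 65445 bp away. LINC01747 had 1692 bp, LINC02247 had 1518 bp, DISC1-IT1 had 1627 bp, TONSL-AS1 had 1791 bp and NCRNA00250 had 1471 bp, all with an H82 region within 580 to 1303 bp of the 5′ end. At TONSL-AS1, 2 of 6 pieces of the window had another exact copy. LINC01913 had 1439 bp (chr2:41860139-41861577), with no overlap by H82 and the nearest H82 region at 4055 bp. Of the 10 regions at genes with a symbol, 2 (LINC01941 and LINC01913) were not overlapped by any H82 region. Of the 10 named for H82-only genes, 5 were not overlapped by any H146 region.

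**Figure D5:**
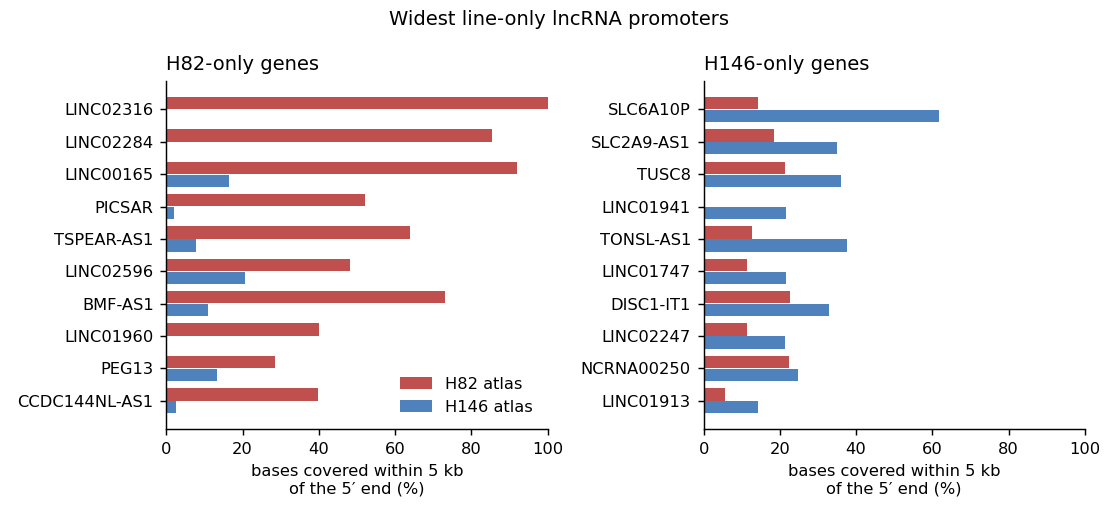
Bases covered by regions within 5 kb of the 5′ end (%, horizontal axis) in the H82 and H146 atlases. Shown are the 10 H82-only and the 10 H146-only lncRNA genes with the widest promoter regions, among genes with a symbol. LINC02316 reaches 100.0% in H82 with 0.0% in H146. The other line also covers some bases at 7 of the 10 H82-only genes, up to 20.5% at LINC02596, and at 9 of the 10 H146-only genes, up to 22.6% at DISC1-IT1.

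Across all line-only genes the other line was often near. The region of 803 of the 890 H82-only genes (90.2%) and 418 of the 499 H146-only genes (83.8%) was not overlapped by the other line at all. The nearest region of the other line was over 5 kb away for 468 H82-only genes (52.6%) and 185 H146-only genes (37.1%), and over 50 kb away for 48 (5.39%) and 12 (2.40%). Regions of at least 1000 bp stood behind 233 H82-only genes (26.2%) and 77 H146-only genes (15.4%), and 57 and 34 rested on regions of exactly 200 bp, the narrowest in the files. Several H82-only genes belong to families of near-identical copies, where reads may be split among the copies. They were 4 FAM138 genes, 4 FAM230 genes and all 3 ULK4P genes with a promoter region. A further 2 FAM138 genes and 2 FAM230 genes were open in both lines. Within 5 kb of the 5′ end, at least 50% of bases were covered in H82 at 43 H82-only genes and in H146 at 5 H146-only genes, against 212 and 159 of the genes with both.

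Line-only genes were unevenly spread over chromosomes, as were all regions. H82-only genes made up 37.0% of the genes with a promoter region on chromosome 21 and 36.4% on chromosome 15, where the H82 atlas also held 1.88 and 1.80 times as many regions as the H146 atlas. On chromosome 18 they made up 6.35%, H146-only genes made up 24.3%, and the region ratio was 0.789. The chromosome 21 genes were partly clustered, with 7 H82-only lncRNA genes between 45 and 46 Mb, PICSAR and COL18A1-AS1 among them. The part of DNA copy number in these shares was not tested.

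Known lncRNAs were followed in 5 lists and classed by the promoter rule. By that rule, 23.8% of all 12191 distant lncRNA genes were open in both lines, 7.28% in H82 only and 4.09% in H146 only. A further 64.1% had no region within 500 bp in either line. The lists had 14 nuclear and housekeeping, 23 neural, 14 imprinted, 28 cancer-associated and 10 endoderm and lung lncRNAs, and those not in the annotation of these chromosomes or nearer to a protein-coding TSS are left out below. All 7 nuclear and housekeeping lncRNAs that met the distance rule were open in both lines. MALAT1, an abundant nuclear speckle RNA, had 3271 bp in H82 and 2792 bp in H146. NEAT1, the scaffold of paraspeckles, had 3020 bp over its 5′ end in H82, but in H146 the region within reach was 334 bp wide and began 269 bp away. NORAD (1128 and 1226 bp), DANCR (1348 and 1544 bp), SNHG12 (2425 and 2485 bp), EPB41L4A-AS1 (913 and 1542 bp) and CYTOR (333 and 380 bp) completed this group. At CYTOR, 2 of 6 pieces of the window had another exact copy.

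Of 13 neural lncRNAs, 9 were open in both lines. These were the microRNA hosts MIR137HG, MIR9-1HG, MIR9-3HG and MIR7-3HG with LINC00461, LINC01122, MIAT, SOX1-OT and SOX21-AS1. MIAT was wider in H146 (4475 bp against 1688 bp) and SOX21-AS1 in H82 (1191 bp against 432 bp). MIR124-2HG was H82-only, and RMST and MIR124-1HG had no region within 500 bp in either line. DLX6-AS1 lay in regions of 16622 bp (H82) and 17216 bp (H146) that reached within 5 kb of a protein-coding TSS and so were not counted.

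Of 10 imprinted lncRNAs, which are expressed from a single parental copy, 7 had no region, close to the 64.1% of all distant lncRNA genes. KCNQ1OT1 was the one open in both lines (2595 and 2593 bp). PWRN1, of the Prader-Willi region, was H82-only with 782 bp 16 bp from its 5′ end and the nearest H146 region 223406 bp away, but 4 of 6 pieces of its window had another exact copy. PEG13 was H82-only, and H19, MEG3, MEG8, MEG9, SNHG14, AIRN and DIO3OS had none within 500 bp in either line. At H19 the nearest region was 1371 bp away in H146 and 5161 bp in H82, and at MEG3 it was 1318 bp in both.

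Of 14 cancer-associated lncRNAs, 7 were open in both lines and 0 in a single line. They were PVT1, LUCAT1, LINC00511, SCHLAP1, MYCNUT, DLEU1 and DLEU2. PVT1, beside MYC, entered through its H146 promoter region of 4326 bp. Its H82 region of 282037 bp also spanned the MYC TSS and so was no promoter region by the distance rule. CASC19, CCAT2 and PRNCR1 all lay in another H82 region of 527244 bp, which came within 5 kb of a protein-coding TSS, and with no H146 region within 500 bp they were not counted. UCA1, BCAR4, NBAT1 and LINC-ROR had no region within 500 bp in either line. Of 6 pieces of the window, 5 at LINC-ROR and 2 at SCHLAP1 had another exact copy, so reads there cannot be assigned with certainty. Of 3 lncRNAs tied to endoderm and lung, CASC15 was open in both (912 and 964 bp), and LINC00261, beside FOXA2, lay in regions of 5986 and 6255 bp that came too near a protein-coding TSS. SFTA3 was H82-only with 269 bp over its 5′ end, and the nearest H146 region was 5274 bp away.

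Within 200 kb of the genes of 30 lineage factors, among them the splicing regulator SRRM4, 38 lncRNA genes had a promoter region. Of these, 6 (15.8%) were line-only, against 32.4% of all 4292 genes, given without a test. In H82 these were ENSG00000259133 near OTX2 (5886 bp, chr14:56728615-56734500), SFTA3 near NKX2-1 and ENSG00000271776 near POU4F1 (1531 bp, chr13:78595610-78597140). OTX2 is a homeobox factor of the developing forebrain, and 88.9% of the 10 kb around the lncRNA 5′ end was covered in H82 against 2.00% in H146. Such H82 coverage was not particular to this gene. Nearby, between chr14:56307341 and chr14:57064752, it was 85.4% at LINC02284, 90.6% at ENSG00000258803 and 91.8% at ENSG00000286257, all H82-only. In H146 the line-only genes were LINC01747 near FOXA2, an endoderm factor, LINC00581 near SOX4 (1058 bp) and ENSG00000269949 near REST (687 bp), a repressor of neuronal genes. Each of these 3 had an H82 region within 640 to 671 bp of the 5′ end. HES1, a NOTCH target, had 8 lncRNA promoters nearby, all open in both lines, and 12 of the 30 factors, NEUROD1 and INSM1 among them, had none nearby.

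The 5 widest members of each line were of different kinds. In H82, 4 of 5 lay on chromosome 14 at H82-only genes, LINC02316, LINC02284, ENSG00000258803 (18415 bp) and ENSG00000286257 (17009 bp), and the fifth was ENSG00000280614 on chromosome 21 (17024 bp). In H146 all 5 were open in both lines. ENSG00000281181 (17985 bp in H146, 16955 bp in H82) and ENSG00000280614 (16957 bp in H146) lay in a stretch of chromosome 21 with near-identical copies, since 5 and 6 of 6 pieces of their windows had another exact copy. The others were ENSG00000236772 inside ASXL1 (13760 bp), ENSG00000267409 (12471 bp) and ENSG00000243655 (12218 bp).

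Short words read by lineage factors were counted on both strands, as a description without a test. No word below contains another. The word TAATCC, read by OTX2, had 0.804 matches per kb of H82-only lncRNA promoter region and 0.385 per kb where the region was H146-only, with 0.449 and 0.395 in the shared ones. In distal regions the same word reached 1.32 per kb (H82-only) and 0.446 per kb (H146-only). TGTTTAC, read by FOXA factors, had 0.121 matches per kb of H82-only promoter and 0.235 where H146-only. The E-box CAGATG, bound by NEUROD1, had 1.10 and 0.945 matches per kb in the same order. TGACTCA, the AP-1 word, had 0.214 and 0.310. Distal H82-only and H146-only regions had 0.134 and 0.334 matches per kb of TGTTTAC. For CAGATG they had 1.28 and 0.901, and for TGACTCA 0.196 and 0.270. In windows of 300 bp at the 5′ ends, TAATCC was present at 18.8% of H82-only, 12.6% of H146-only and 9.85% of shared genes, against 14.3% of distant lncRNA 5′ ends with no region and 9.98% of all lncRNA and protein-coding 5′ ends. TGTTTAC was present at 4.16%, 9.02% and 5.96%, against 4.40% of those with no region and 3.51% of all. CAGATG was present at 26.5%, 22.2% and 18.1%, against 20.3% and 15.8%, and TGACTCA at 6.52%, 9.22% and 6.79%, against 6.50% and 4.86%. The classes also differed in base composition, with a median GC content of 55.0% in shared, 49.3% in H82-only and 47.7% in H146-only windows, and its part in the word counts was not tested.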

How the data were processed

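ATAC-seq regions of H82 and H146 cells were taken from the deposited atlases. Per the study's methods, the authors trimmed reads with Trim Galore 0.4.4, aligned them to hg38 with Bowtie2 2.3.4, dropped duplicates with Picard, called regions per sample with MACS2, removed blacklisted regions and merged sites within 500 bp. The deposited values are region starts (counted from 0) and ends in bp, with no score, count or library, so depth per library was unknown, and no column had to be set aside. Whether read ends were shifted for the Tn5 cut is not given in the sources used here. A planned edgeR test of FHD-286 was not run for lack of counts. One lineage factor and its binding word are not reported here.

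The 5′ ends came from the GENCODE release 44 annotation and the sequence from hg38, the build of the files. Coordinates are 1-based. A region was shared if any region of the other line overlapped it by 1 bp or more. Differences were tested by sign flips of per-chromosome differences over 22 chromosomes (at least 3 values of each kind per chromosome, two-sided, 100000 resamples, seed 1), with jackknife standard errors, Wilson intervals at 95% and Benjamini-Hochberg adjustment over 10 tests within the lines and, separately, over 5 between them. The steps were tested on simulated data. Python 3.11.15, numpy 2.4.6, pandas 2.3.3 and scipy 1.17.1 were used.

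Genes were named by rule: per line the 10 line-only genes with a symbol and the widest regions, all listed lncRNAs over 5 kb from protein-coding TSSs, line-only genes within 200 kb of lineage factors and the 5 widest members per line. The microRNA hosts, SNHG27 and the copy families were added after their values were seen. The members and lists were chosen with earlier results of these data known. Alternatives changed the distances, sharing, width, annotation level, chromosomes, CpG window and the definition of a line-only gene.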

Additional observations from a re-analysis of the deposited data

Results flagged for a closer look

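Of 5 contrasts set side by side between the lines over 22 chromosomes, 3 differed after Benjamini-Hochberg adjustment over the 5, by sign flips of the difference itself. The gap in sharing between lncRNA and protein-coding promoters was wider in H82 (-17.1 percentage points) than in H146 (-11.6), a difference of -5.52 points that had this direction on 17 of 22 chromosomes (permutation p 0.00633, adjusted 0.0158). The width difference between shared and line-only lncRNA promoters was smaller in H82 (619 bp) than in H146 (762 bp), by -143 bp, with this direction on 18 of 22 chromosomes (permutation p 0.00042, adjusted 0.0021). The CpG difference between genes with both and line-only genes was smaller in H82 (0.120) than in H146 (0.156), by -0.0365, on 15 of 22 chromosomes (permutation p 0.0268, adjusted 0.0446). The H82 atlas held 1.18 times as many regions as the H146 atlas on these chromosomes, and its part in these differences was not tested. The lncRNA promoters' lead over distal regions differed by 1.48 points in sharing (permutation p 0.302, adjusted 0.351) and by -27 bp in width (permutation p 0.351, adjusted 0.351), neither past the threshold. The sharing contrast did not weight by width. With distal regions weighted to the members' widths, the lead was 12.1 points in H82 (SE 1.46) and 5.16 points in H146 (SE 0.645). The difference between the lines was not tested under that weighting.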

How the results depend on the processing

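Of 86 values recomputed under 11 alternative settings, 84 kept their direction and side of the threshold, or for a count stayed within 1.5 times. The 2 that moved were the counts of line-only genes. When no region of the other line was allowed within 5 kb of the 5′ end, H82-only genes fell to 468 from 890 and H146-only genes to 185 from 499, by construction of the stricter definition. Elsewhere these counts ranged up to 1049 and 608, when 1 kb replaced 500 bp. The lead in sharing over distal regions ran from 12.1 to 25.9 points in H82 and from 5.16 to 24.0 points in H146, lowest when distal regions were weighted to the members' widths. The largest permutation p over the tested alternatives was 2e-05. A further planned setting, GENCODE level 1 or 2, removed no lncRNA gene and so tested nothing. No replicate could be left out, and no paired value exists. No paired analysis was possible because the atlases pool all libraries of a line. A count says only whether a region was called in any library, so a site below the calling limit in every library reads as closed, and depth per library, which sets that limit, was unknown.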
